A study of Mus musculus with 9 samples.

Results

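The imprinted growth genes Dlk1, Meg3, Rian, Mirg, Igf2, H19, Peg3, Mest, Plagl1 and Grb10 were followed tumor by tumor in whole-tumor RNA-Seq of mouse osteosarcoma (OS), a bone-forming cancer. The 10 genes were taken by their symbol from the 55367 genes of the table, and they were chosen by name with their levels and log2 fold changes in this same contrast already known, so their differences between the groups are given as a description, with no p-value, and support nothing further. All 10 are in the table, and 9 of them passed the filter on low counts, with Mirg left out. The study compared spontaneous tumors of a pair of genetically engineered mouse models (GEMMs). The 4 p53-driven tumors carry the genotype Col2.3-Cre/TrpP53fl/+, in which the osteoblast-specific promoter Col2.3 drives Cre and 1 allele of Trp53 is floxed. The 5 Myc-knockin tumors add Lox-Stop-Lox;(LSL)-c-MycT58A to Cre and p53fl/+, so that the same Cre also switches on a Myc allele with the stabilizing T58A change. Both groups therefore share the Cre and the floxed Trp53 allele, and the labels give no age. The samples' labels do not name the columns of the table. Of the columns, M408, M624 and the 4 that begin with F stand under their genotype in the study's supporting data, and M351, M9 and M664 were placed in the Myc-knockin group by their letter.

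In an imprinted gene the copy from 1 parent is silenced, in most cases under the control of DNA methylation laid down in the germ line of either parent. Many imprinted genes control growth before birth and are turned down afterwards. Dlk1, Meg3, Rian and Mirg lie in the Dlk1-Dio3 domain of chromosome 12, where Dlk1 is expressed from the paternal copy and the noncoding RNAs from the maternal copy. Igf2 and H19 are neighbors on distal chromosome 7, where Igf2 is expressed from the paternal copy and H19 from the maternal copy. A control region between them is methylated on the paternal copy and bound by CTCF on the maternal copy. Gene counts cannot tell the parental copies apart, so nothing below measures imprinting itself.

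The libraries differed in ways that touch these genes. Total counts ranged from 2716322 to 17073285. In 4 libraries, 12 genes that hold satellite repeats took 44.3% (F187), 67.9% (M351), 23.2% (M408) and 81.0% (M9) of all counts, against at most 0.0242% in the other 5. Counts on 1779 chemosensory receptor genes, which bone tumors are not known to express, gave a background of 0.7104 (F187), 1.12 (M351), 0.151 (M408) and 1.24 (M9) counts per kilobase of exon, against 0.0297 to 0.0412 in the other 5 libraries. The background expected on a gene is given below where it made up more than 10% of the counts of a member in a library with satellite reads, and for the listed genes that a result turns on. Its part in the differences was not tested. M624 and M664 stood apart by the small nuclear RNA Rn7sk, with 5.33 and 9.32 CPM (counts scaled to a common library size, here without the satellite genes) against 8858 CPM or more in the other 7. Without the 4 libraries with satellite reads, M624 and M664 are the only Myc-knockin tumors left. In such fits genotype and this Rn7sk difference cannot be told apart. Levels below are CPM after edgeR's TMM normalization, and 3 counts correspond to between 0.114 CPM in M624 and 2.39 CPM in M9. Levels were measured in whole tumors, so fewer cells of a type and less RNA per cell cannot be told apart. The Myc transcript itself lay between 144 and 1045 CPM in the Myc-knockin tumors and between 43.5 and 67.1 CPM in the p53-driven tumors.

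The promoters of 3 members are shown because they frame the results. Dlk1 and Meg3 start the coding and the noncoding side of the same domain, and Plagl1 is the one member window that holds the E-box CACGTG to which Myc binds. RefSeq windows of GRCm38.p6, from 250 bases before to 50 bases after the start, were found for 9 of the 10 members, with 16 windows in all and none for H19. The E-box occurred in 1 of the 16 windows, and in 7.15% of all 32851 promoter windows. The cyclic AMP response element TGACGTCA occurred in 2 of the 16, at Meg3 and Peg3, and in 1.79% of all windows. Both motifs read the same on either strand, and they share no bases in these windows. Matches are in capitals. A match describes letters and not binding, which was not measured. In the Meg3 window the element begins 57 bases before the start, and in the Plagl1 window the E-box begins 182 bases before it.
Dlk1, chr12:109452573-109452872, plus strand: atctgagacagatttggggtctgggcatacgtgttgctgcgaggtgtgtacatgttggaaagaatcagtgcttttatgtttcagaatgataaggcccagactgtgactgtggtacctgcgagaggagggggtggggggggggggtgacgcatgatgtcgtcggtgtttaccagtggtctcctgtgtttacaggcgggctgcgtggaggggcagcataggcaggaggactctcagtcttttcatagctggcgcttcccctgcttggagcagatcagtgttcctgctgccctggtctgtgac
Meg3, chr12:109540746-109541045, plus strand: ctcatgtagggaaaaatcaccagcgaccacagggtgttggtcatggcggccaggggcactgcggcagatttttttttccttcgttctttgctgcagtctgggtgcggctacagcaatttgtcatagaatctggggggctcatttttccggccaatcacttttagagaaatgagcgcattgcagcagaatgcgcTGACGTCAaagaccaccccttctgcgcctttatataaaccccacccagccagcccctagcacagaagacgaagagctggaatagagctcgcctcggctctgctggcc
Plagl1, chr10:13090582-13090881, plus strand: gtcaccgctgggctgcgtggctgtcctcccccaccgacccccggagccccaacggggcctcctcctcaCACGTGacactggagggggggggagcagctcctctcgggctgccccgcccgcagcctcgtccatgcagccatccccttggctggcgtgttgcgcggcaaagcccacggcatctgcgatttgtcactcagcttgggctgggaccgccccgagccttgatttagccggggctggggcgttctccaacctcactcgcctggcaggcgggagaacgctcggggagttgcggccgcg

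The microRNAs made from H19, Igf2 and Mest are shown because their genes lie inside these members and were counted beside them. Mir675 lies in H19, Mir483 in Igf2 and Mir335 in Mest. The mature microRNAs themselves were not measured. The mature sequences are from RefSeq, with the seed (bases 2 to 8) in capitals. No pair of them shares a seed.
miR-675-5p, from H19: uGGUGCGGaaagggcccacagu
miR-675-3p, from H19: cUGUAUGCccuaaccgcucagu
miR-483-5p, from Igf2: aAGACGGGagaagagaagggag
miR-483-3p, from Igf2: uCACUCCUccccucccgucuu
miR-335-5p, from Mest: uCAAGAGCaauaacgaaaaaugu
miR-335-3p, from Mest: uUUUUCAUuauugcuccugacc

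**Figure D1:**
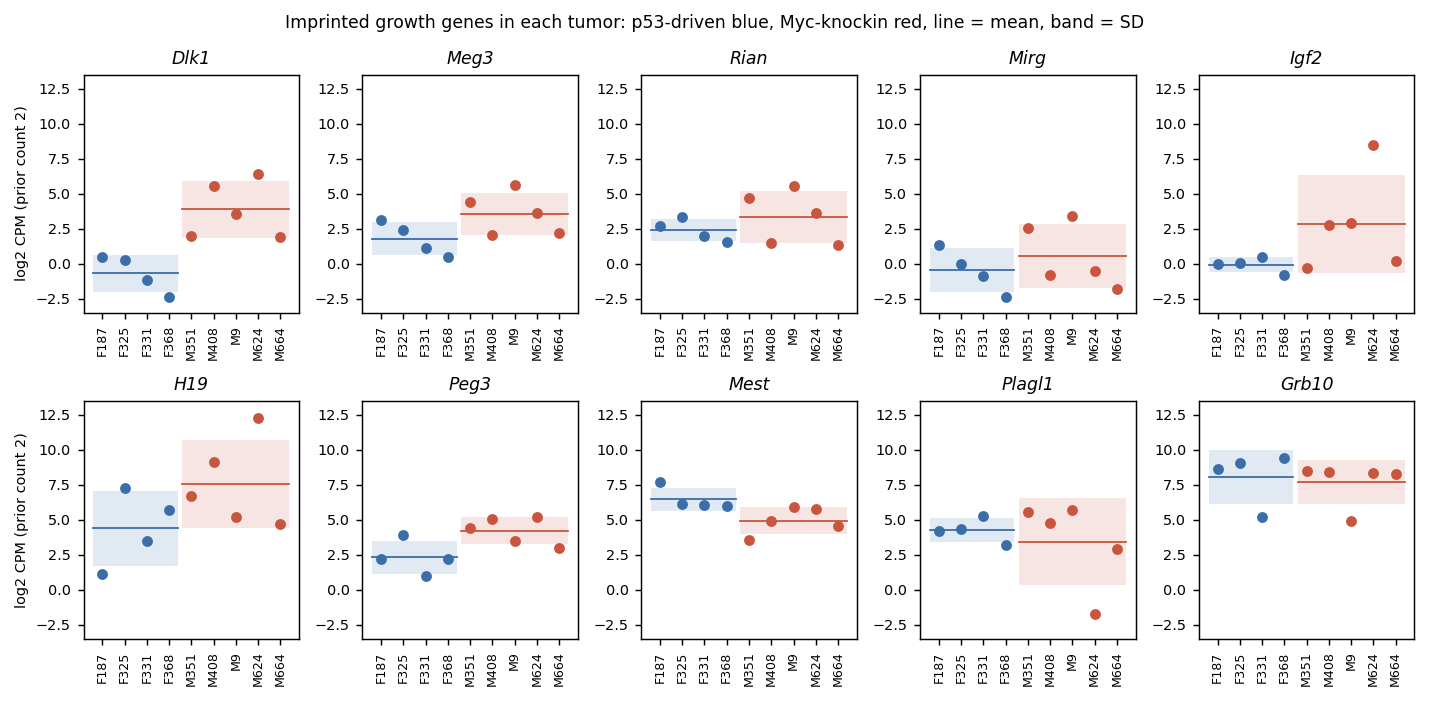
Each panel shows 1 gene as log2 CPM with a prior count of 2 (vertical axis) in each of the 9 tumors (horizontal axis), with p53-driven tumors in blue and Myc-knockin tumors in red. The line is the mean and the band the SD of each group (n = 4 and n = 5). The groups do not overlap for Dlk1, which is higher in the Myc-knockin tumors, and for Mest, which is lower, and M624 lies far above all other tumors for Igf2 and H19 and far below them for Plagl1.

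Dlk1 encodes a transmembrane protein of the Notch ligand family that marks immature cells and holds back their differentiation. Its gene (ENSMUSG00000040856) lies on chromosome 12 of mm10 from 109452823 to 109463336. Expression was 1.18 CPM in F187, 1.01 in F325, 0.259 in F331 and 0 in F368, where no read was counted. In the Myc-knockin tumors it was 3.69 CPM in M351, 46.3 in M408, 11.2 in M9, 85.3 in M624 and 3.50 in M664. Every Myc-knockin tumor was above every p53-driven tumor, and the Myc-knockin tumors themselves spread over a range of more than 20-fold. The Myc-knockin tumors had a mean of 30.0 ± 35.6 CPM (SD, n = 5) and the p53-driven tumors of 0.614 ± 0.573 CPM (SD, n = 4), which edgeR fitted as a log2 fold change of 5.78 (standard error 1.26).

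The counts behind these levels were small outside M408, M624 and M664. Dlk1 had 253 counts in M408, 2238 in M624 and 81 in M664, where less than 1 count of background was expected. The 6 counts of M351 stood beside 6.36 expected from background, the 14 counts of M9 beside 7.03, and the 3 counts of F187 beside 4.02. With the expected background subtracted, M351 and F187 fell below 0 and M9 came to 5.55 CPM, so that M351 no longer lay above the p53-driven tumors. After that subtraction the fitted log2 fold change was 6.16. Among the 5 libraries without satellite reads, 3.50 and 85.3 CPM in M664 and M624 compared with at most 1.01 CPM in F325, F331 and F368, and the log2 fold change was 6.58. In this fit genotype and the low Rn7sk of M664 and M624 cannot be told apart.

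Meg3, Rian and Mirg are long noncoding RNAs of the same domain, expressed from the maternal copy. Meg3 is known as a growth-restraining RNA, and Rian and Mirg are hosts of small nucleolar RNAs and of microRNAs. The genes lie downstream of Dlk1 on the plus strand of chromosome 12, from 109541001 to 109571726 for Meg3 (ENSMUSG00000021268), from 109603940 to 109661716 for Rian (ENSMUSG00000097451) and from 109729764 to 109749460 for Mirg (ENSMUSG00000097391). Meg3 stood at 8.29, 4.98, 1.99 and 1.22 CPM in F187, F325, F331 and F368. It stood at 20.9, 3.85, 47.8, 11.9 and 4.45 CPM in M351, M408, M9, M624 and M664. The groups overlapped, since 3 of the 5 Myc-knockin tumors were above the highest p53-driven tumor and M408 and M664 were not. Meg3 had a log2 fold change of 2.11 (standard error 0.84).

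Rian stood at 6.32, 10.03, 3.72 and 2.67 CPM in F187, F325, F331 and F368. Its levels were 25.9, 2.56, 45.4, 12.2 and 2.29 CPM in M351, M408, M9, M624 and M664. The same 3 tumors, M9, M351 and M624, were the highest for both RNAs, while M408 and M664 had less Rian than any p53-driven tumor. The log2 fold change of Rian was 1.57 (standard error 0.85). Mirg did not pass the filter, with at most 13 counts in any tumor, and its level was 10.4 CPM in M9, 5.54 in M351 and at most 2.37 in the other 7.

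For these 3 RNAs the highest CPM came from the libraries with the most background. Of the 60 Meg3 counts in M9, 22.5 were expected from background, of the 34 in M351 20.3, of the 21 in F187 12.9, and of the 21 in M408 2.74. For Rian the expected counts were 22.7 of 57 in M9, 20.5 of 42 in M351, 13.0 of 16 in F187 and 2.76 of 14 in M408. For Mirg they were 9.07 of 13 in M9, 8.20 of 9 in M351, 5.18 of 6 in F187 and 1.10 of 2 in M408. Less the expected background, Meg3 was 29.9 CPM in M9, 8.41 in M351, 3.34 in M408, 11.9 in M624 and 4.42 in M664, against 1.14 to 4.94 CPM in the p53-driven tumors. M624 held the most reads of Meg3 (313 counts) and of Rian (321 counts), where less than 1 count of background was expected. Without the 4 libraries with satellite reads, the log2 fold change of Meg3 was 1.59 and that of Rian 0.41. M9 alone also weighed on both, since without it the values were 1.34 for Meg3 and 0.86 for Rian.

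**Figure D2:**
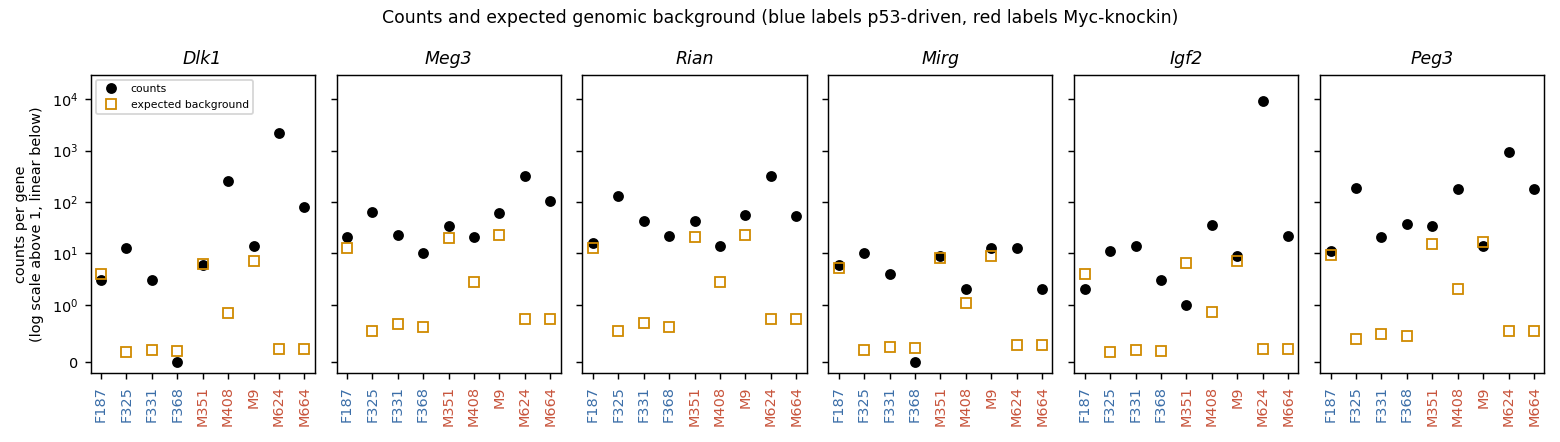
Each panel shows 1 gene, with the counts in each tumor as black points and the counts expected from genomic background as open squares (vertical axis logarithmic above 1 and linear below). In F187, M351 and M9 the points for Mirg and Igf2 lie near or below the squares, while the counts of M624, with 2238 for Dlk1 and 9377 for Igf2, lie far above them. The squares cover all exon bases of a gene, also those shared with other genes, and may be too high for Igf2.

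The noncoding and the coding side of the domain did not run in parallel. M408, the second highest tumor for Dlk1 with 46.3 CPM, had 3.85 CPM of Meg3 and 2.56 CPM of Rian, within or below the range of the p53-driven tumors. Per kilobase of exon, Dlk1 was at 8.19 CPM in M408 and 15.1 in M624, and Meg3 at 0.213 and 0.659, whereas in M9 Meg3 (2.64) was above Dlk1 (1.97). Over the 9 tumors, Pearson's r of log2 CPM was 0.90 between Meg3 and Rian, 0.89 between Meg3 and Mirg, and 0.55 between Dlk1 and Meg3. The part of background in these correlations was not tested. No count fell on Mir770 within Meg3, 1 count fell on the microRNA genes within Rian, and 4 counts, all in M9, on those within Mirg. All 94 bases of Mir770 lie in Meg3 exons, and the handling of shared reads is not given. Its 0 counts therefore do not show that no read fell there.

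None of the other genes of the domain passed the test. Rtl1, an imprinted gene derived from a retrotransposon, and Dio3, the enzyme that inactivates thyroid hormone, did not pass the filter, with at most 16 and 7 counts in a tumor. Of the 10 other genes listed for this domain, 6 were tested and none was called by edgeR in either direction, where a call needs more than 1.5-fold change and an adjusted p below 0.05. Across all 15365 genes tested, 5.27% were called. Begain, the neighbor of Dlk1, had a log2 fold change of 3.21 that did not pass (edgeR adjusted p = 0.0670), at 2.20 to 18.3 CPM in the Myc-knockin and 0.346 to 3.16 CPM in the p53-driven tumors. Background made up an expected 5.48 of its 23 counts in M9, 4.96 of 24 in M351 and 3.13 of 8 in F187, while M624 had 129 counts. Wars, a tRNA synthetase gene, ran from 18.96 CPM in F187 to 72.2 CPM in M624. Yy1 and Ppp2r5c, broadly expressed genes listed with the domain, lay between 71.7 and 140 CPM and between 89.9 and 175 CPM in all 9 tumors. Begain and Wars were named after their values were seen.

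H19 is a noncoding RNA that is abundant in fetal tissues and is kept in adult skeletal muscle, and it carries miR-675. Its gene (ENSMUSG00000000031) lies on the minus strand of chromosome 7 from 142575529 to 142578143. Expression was 1.97 CPM in F187, 157 in F325, 10.9 in F331 and 50.8 in F368. In the Myc-knockin tumors it was 103 CPM in M351, 549 in M408, 35.9 in M9, 5064 in M624 and 25.8 in M664. M624 and M408 were above every p53-driven tumor, and the other 3 Myc-knockin tumors lay within their range. With 132895 counts H19 ranked at number 3 among all genes in M624 and at number 62 in M408. The log2 fold change was 4.38 (standard error 1.77), and M624 alone held 87.6% of the summed CPM of the Myc-knockin group. Without M624 the log2 fold change was 1.77, and the mean of the other 4 Myc-knockin tumors was 178 ± 249 CPM (SD, n = 4). Without F325 it was 5.79. Background accounted for an expected 1.75 of the 5 H19 counts in F187.

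Igf2 is the insulin-like growth factor of fetal life and signals through the receptors Igf1r and Insr. Its gene (ENSMUSG00000048583) lies on the minus strand of chromosome 7 from 142650766 to 142666816. Expression was 0.790 CPM in F187, 0.856 in F325, 1.21 in F331 and 0.365 in F368. It was 0.616 CPM in M351, 6.59 in M408, 7.17 in M9, 357 in M624 and 0.950 in M664. M624 was 49.8 times as high as the next tumor, M9, where 7.12 of the 9 counts were expected from background, and M351 and M664 lay within the p53-driven range. Igf2 was also below its expected background in M351 (1 count beside 6.43 expected) and in F187 (2 counts beside 4.07). The expected counts given for Igf2 cover all its exon bases, also those shared with another gene, and may be too high. The log2 fold change was 6.50 (standard error 1.93), and 95.9% of the summed CPM of the Myc-knockin group came from M624. Without M624, Igf2 no longer passed the filter, and its mean in the other 4 Myc-knockin tumors was 3.83 ± 3.53 CPM (SD, n = 4) against 0.805 ± 0.347 CPM (SD, n = 4) for p53-driven tumors.

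Levels of Igf2 may be too low in every tumor, because 62.8% of its exon bases are also annotated to the gene Gm49394 on the same strand and the handling of shared reads is not given in the sources used here. Gm49394 itself had 10 counts in M624 and none elsewhere. The background expected on Igf2 was computed over all 5723 of its exon bases, of which 2029 belong to no other gene. If shared reads were not counted, that background is too high as well. The ratio of H19 to Igf2 per kilobase of exon is given for the 5 tumors in which Igf2 had more than 10 counts and background was under 1 count. It was 33.0 in M624, 194 in M408 and 63.2 in M664, against 428 in F325 and 20.9 in F331. In the other 4 tumors Igf2 had between 1 and 9 counts, and no ratio is given. In 3 of them this was at, near or below the background expected over all its exon bases. Mir483 had 6 counts in M624 and none elsewhere, and Mir675 had none in any tumor. All 84 bases of Mir675 lie in H19 exons, so its count depends on how shared reads were handled. Its 0 counts therefore do not show that no read fell there. The antisense gene Igf2os had 435 counts in M624 and at most 8 in any other tumor, and its 6 counts in M9 stood beside 6.64 expected from background. Of its exon bases, 2166 lie within Igf2, 98 of them in exons of Igf2. The strand setting of the counting is not given, so its reads and those of unspliced Igf2 cannot be told apart.

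Of the 26 other genes listed for distal chromosome 7, 17 were tested, 1 was called higher and 1 lower. Cdkn1c, a cyclin-dependent kinase inhibitor expressed from the maternal copy, was called higher, with a log2 fold change of 2.99 (adjusted p = 0.0411, edgeR's quasi-likelihood test, adjusted by Benjamini-Hochberg across all genes tested). Its levels ran from 3.98 to 25.5 CPM in the Myc-knockin tumors and from 0.519 to 4.74 CPM in the p53-driven tumors. Its lowest Myc-knockin value, in M9, came from 5 counts beside 2.54 expected from background. Tnfrsf26, a member of the TNF receptor family, was called lower, with a log2 fold change of -2.55 (edgeR adjusted p = 0.0195). It ran from 1.94 to 8.79 CPM against 20.9 to 38.4 CPM, with no overlap, and in M9 its 5 counts stood beside 4.00 expected. Phlda2, a placental growth-restraining gene, was not tested. It had no count in any p53-driven tumor, 32.0 CPM in M624, 4.76 CPM in M408 and at most 0.797 CPM in the other 3 Myc-knockin tumors. Lsp1, which lies close to H19, stood at 203 CPM in M624 and between 5.92 and 28.5 CPM in the other 8. Kcnq1ot1, a noncoding RNA of the neighboring domain, stood at 14.8 (M624) and 14.1 CPM (M664) against 19.3 to 222 CPM in the other 7. Tnnt3, a troponin of fast muscle fibres near H19, had 557 CPM in F325 and 0.381 in M624.

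**Figure D3:**
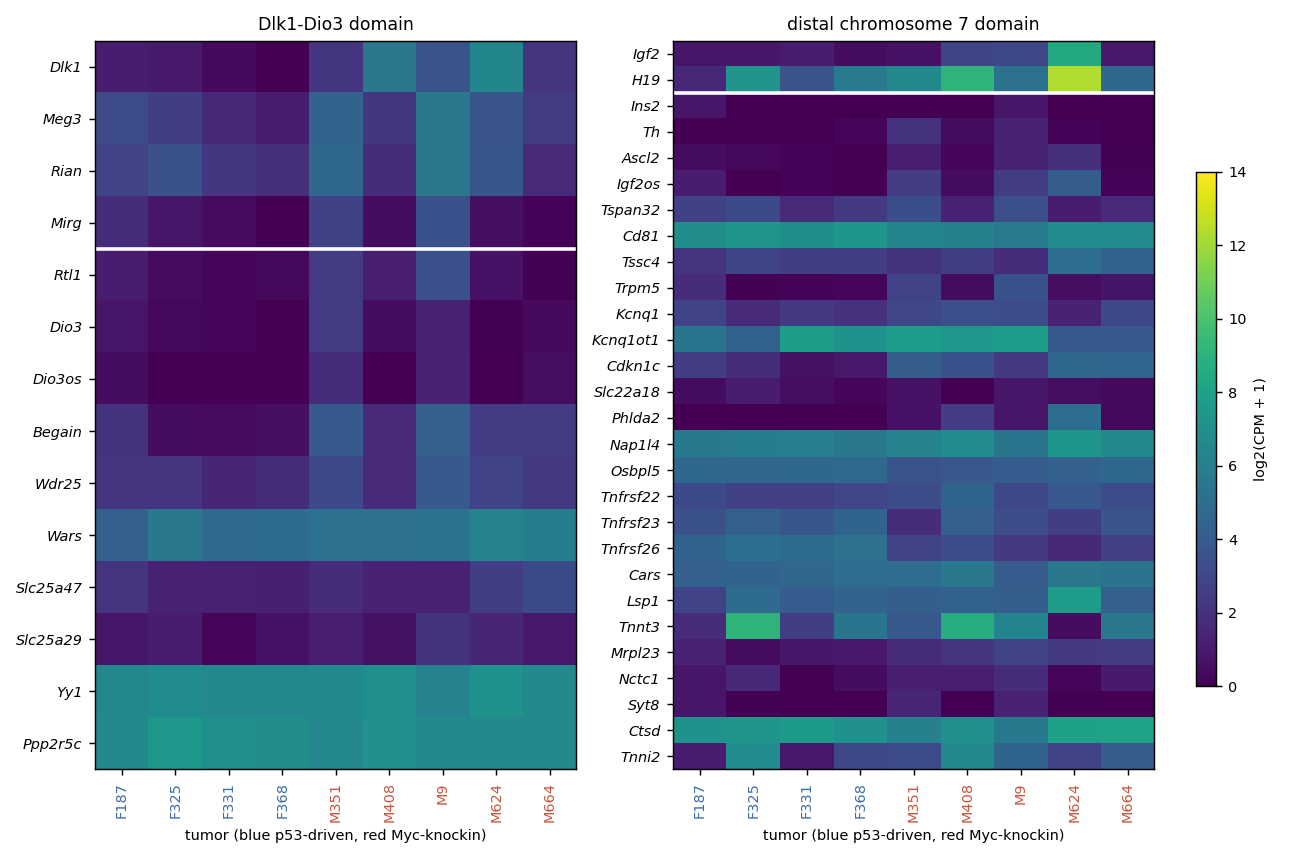
Rows are genes of the Dlk1-Dio3 domain (left) and of distal chromosome 7 (right), with members above the white line, and columns are the 9 tumors. The color gives log2(CPM + 1). The column of M624 stands out on the right for H19, Igf2, Phlda2 (32.0 CPM) and Lsp1 (203 CPM), but not for neighbors such as Cd81 and Ctsd.

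Peg3 encodes a zinc finger protein expressed from the paternal copy, and Mest a hydrolase-like protein of embryonic mesoderm. Peg3 (ENSMUSG00000002265) lies on chromosome 7 from 6703892 to 6730431. It was measured at 4.34, 14.6, 1.82 and 4.50 CPM in F187, F325, F331 and F368. In M351, M408, M9, M624 and M664 it was 20.9, 33.0, 11.2, 35.8 and 7.56 CPM. M351, M408 and M624 were above all p53-driven tumors, and M9 and M664 were below F325. In M351, however, 15.0 of the 34 counts were expected from background, and less that background M351 came to 11.7 CPM, below F325. In M9 the 14 counts were fewer than the 16.6 expected, and in F187 9.47 of the 11 counts were. Peg3 had a log2 fold change of 1.77 (standard error 0.65), which was 2.65 without F325.

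Mest (ENSMUSG00000051855) lies on chromosome 6 from 30723547 to 30748465. It stood at 207 CPM in F187, 69.7 in F325, 66.2 in F331 and 63.1 in F368. It was 11.7 CPM in M351, 29.3 in M408, 61.3 in M9, 54.1 in M624 and 23.0 in M664. Every Myc-knockin tumor was below every p53-driven tumor, but M9 and F368 lay within 2 CPM of each other. Of the 19 counts of M351, 4.44 were expected from background. Mest had a log2 fold change of -1.50 (standard error 0.52), which was -0.92 without F187 and -0.77 without the 4 libraries with satellite reads. Mest shares 912 exon bases with Copg2 on the other strand, and the strand setting of the counting is not given in the sources used here. Mir335 had at most 2 counts in any tumor.

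Plagl1 encodes a zinc finger factor that binds DNA and is known to regulate other imprinted genes, Igf2 and H19 among them. The gene (ENSMUSG00000019817) lies on chromosome 10 from 13060504 to 13131694. It was expressed at 18.6 CPM in F187, 19.7 in F325, 39.4 in F331 and 8.996 in F368. Levels in the Myc-knockin tumors were 46.2 CPM in M351, 26.9 in M408, 52.6 in M9, 0.114 in M624 and 7.34 in M664. The 3 counts of M624 contrast with 170 counts in M664, a library of similar depth. M624, the tumor with the most H19 and Igf2, was therefore the one with the least Plagl1. Background made up an expected 9.72 of the 66 counts of M9, 8.79 of the 75 of M351 and 5.55 of the 47 of F187. The edgeR log2 fold change of Plagl1 was 0.24 (standard error 1.01), and its sign turned negative in 6 of 20 alternatives. The difference in mean log2 CPM had the opposite sign, at -0.82, so no direction is given for Plagl1.

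Grb10 encodes an adaptor that binds the insulin and IGF1 receptors and restrains growth. Its gene (ENSMUSG00000020176) lies on chromosome 11 from 11930508 to 12038683. It was at 405, 520, 37.0 and 683 CPM in F187, F325, F331 and F368, and at 363, 347, 29.5, 328 and 308 CPM in M351, M408, M9, M624 and M664. The groups overlapped, and F331 and M9 were far below the rest. Those tumors are set aside next, a choice made after the values were seen. Apart from them, the Myc-knockin tumors lay between 308 and 363 CPM and the p53-driven tumors between 405 and 683 CPM. Of the 37 counts of Grb10 in M9, 11.3 were expected from background. Grb10 had a log2 fold change of -0.58 (standard error 0.76), which was -0.96 without F331, -0.24 without F368 and -0.29 without M9. Per kilobase of exon, Grb10 at 33.8 CPM was the highest of the 10 genes in M664, and H19 at 2058 CPM was the highest in M624.

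In the edgeR fit the threshold used for all genes was passed by 1 member, Dlk1, on the higher side. DESeq2 called 5 of the 9 members tested (Dlk1, Meg3, H19 and Peg3 higher, Mest lower), and 17.2% of all genes. Since the members were chosen with these values known, these counts are a description and not a test. Over all genes tested, edgeR called 2.26% higher and 3.00% lower. The groups did not overlap for 2 of the 9 members tested, and for 13.0% of all genes tested. The median log2 fold change was 1.77 over the 9 members tested and 0.14 over all genes tested. M624 was the highest tumor for 4 of the 9 (44.4%) and for 21.4% of all genes tested. The log2 fold change of Dlk1 lay between 4.18 and 6.58 in the 19 alternatives that included it, and it did not pass when F187, F325, F331 or F368 was left out, where between 5 and 335 of all genes were called.

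**Figure D4:**
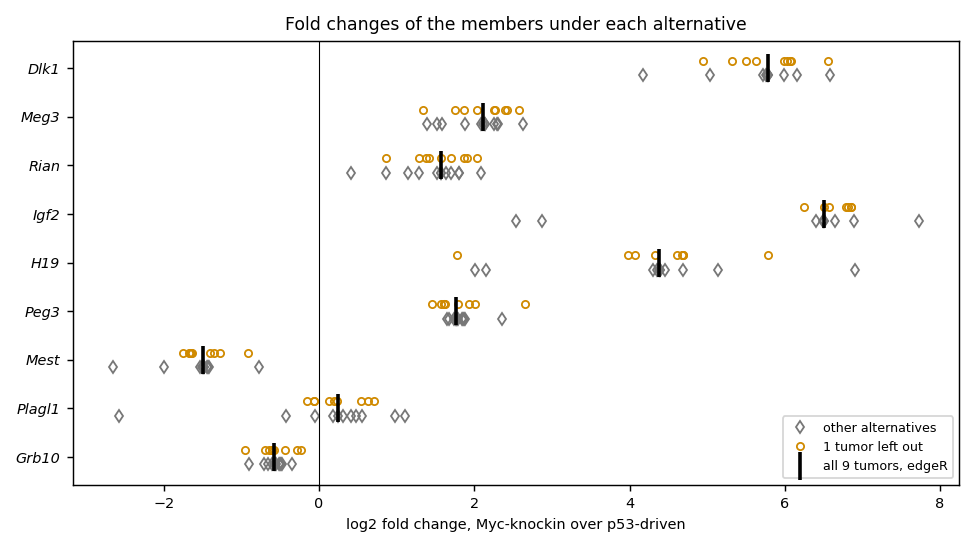
The horizontal axis is the log2 fold change of Myc-knockin over p53-driven tumors for each of the 9 members tested. The bar is the fit of all 9 tumors by edgeR, circles are fits with 1 tumor left out, and diamonds are the other alternatives. H19 ranged from 1.77 to 6.91 and Plagl1 from -2.59 to 1.10, while Dlk1 stayed between 4.18 and 6.58.

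Of 54 further imprinted genes listed outside both domains, 40 were tested, 1 was called higher and 4 lower, which is 12.5% against 5.27% of all genes. Snrpn was called higher, a splicing protein gene of the Prader-Willi domain that shares its transcript with Snurf. Snrpn rose by a log2 fold change of 4.61 (edgeR adjusted p = 0.0279). It ran from 2.75 to 22.5 CPM in the Myc-knockin and from 0 to 1.18 CPM in the p53-driven tumors. Background made up an expected 2.43 of its 11 counts in M351, 2.68 of 12 in M9 and 1.53 of 3 in F187. Without both M624 and M664 its call was lost (log2 fold change 3.78). Snurf had 0 counts in every tumor, and the handling of reads shared by these genes is not given. Dcn, the proteoglycan decorin, was lower with a log2 fold change of -3.78 (edgeR adjusted p = 0.0265), with 3.89 to 99.5 CPM against 332 to 1114 CPM. Pon3, a lactonase gene, was lower with a log2 fold change of -2.38 (edgeR adjusted p = 0.0137), with 6.41 to 12.7 CPM against 26.9 to 60.1 CPM. Peg13, a noncoding RNA, was lower with a log2 fold change of -1.17 (edgeR adjusted p = 0.0481), with 7.97 to 20.2 CPM against 26.9 to 34.5 CPM. Copg2, a coat protein gene that overlaps Mest, was lower with a log2 fold change of -0.99 (edgeR adjusted p = 0.0413), with 16.7 to 29.1 CPM against 43.8 to 52.2 CPM, and it is named here after its value was seen. In Peg13, 5.87 of the 10 counts of M9 and 5.31 of the 17 of M351 were expected from background, and its call was lost when background was subtracted. Calls were lost as tumors were left out, while the log2 fold changes moved little. Without F325, F331 or F368 no gene of this list or of both domain lists was called by edgeR, and between 5 and 8 of all genes were. In those fits 18 (27.3%), 17 (25.8%) and 15 (21.4%) of the listed genes had an unadjusted p under 0.05, against between 16.6% and 19.6% of all genes tested. Cdkn1c was also lost without M351, M624 or M664. Copg2 and Peg13 were lost on leaving out any tumor other than M9 or M664, although the log2 fold change of Copg2 stayed between -1.05 and -0.89 and that of Peg13 between -1.34 and -1.04. Sfmbt2, an imprinted polycomb gene, is given for its level alone and was picked after its values were seen. It had 136 CPM in M624 and at most 22.3 CPM in the other 8.

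The genes through which these members act were counted in 4 lists. Of 18 IGF genes tested, 1 was called. Igf2bp3, an RNA-binding protein of the fetal program that binds Igf2 mRNA, was higher with a log2 fold change of 2.45 (edgeR adjusted p = 0.0260), at 7.17 to 27.5 CPM in the Myc-knockin and 1.87 to 4.74 CPM in the p53-driven tumors. The lowest Myc-knockin value was that of M9, where 9 counts stood beside 10.1 expected from background. Igf2bp3 was no longer called with background subtracted (log2 fold change 2.56), with scaling by library size alone, or without F325, F331 or F368. Igf2r, the imprinted receptor that clears Igf2, had a log2 fold change of -1.14 that did not pass (edgeR adjusted p = 0.0522), with 121 to 206 CPM against 267 to 486 CPM. Igfbp2, an IGF-binding protein, had 185 CPM in M624 and at most 17.6 CPM in the other 8 (log2 fold change 5.59, edgeR adjusted p = 0.0510). Gpc3, a glypican known to limit growth, had 194 CPM in M624 and at most 52.9 CPM in the others (log2 fold change 3.71, edgeR adjusted p = 0.0817). The last 3 were named after their values were seen.

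No gene was called among 14 Notch receptors, ligands and targets, 18 keepers and writers of imprints, and 7 regulators known for these genes. Over all 4 lists, 1 of 55 genes tested was called (1.82%), and 18 (32.7%) had an unadjusted p under 0.05 by edgeR, against 26.8% of all genes, while DESeq2 called 10 (18.2%), against 17.2% of all genes. Notch1, the receptor through which Dlk1 is thought to act, stood between 24.6 and 79.7 CPM in the Myc-knockin and between 44.3 and 66.4 CPM in the p53-driven tumors. M624 was the highest tumor for 8 of the 18 keepers of imprints tested (44.4%), and for 21.4% of all genes tested. The 3 genes named next were picked after their values were seen, for their level in M624. Dnmt3l, a germ line cofactor of DNA methylation that was not tested, had 882 counts and 33.6 CPM in M624 and at most 6.37 CPM in the other 8. Trim28, the corepressor that guards methylated imprints, had 482 CPM in M624, 240 in M664 and at most 127 in the other 7. Zfp57, which leads Trim28 to imprints, had 18.2 CPM in M624 and at most 9.56 CPM in the others.

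Markers of other cell types moved with some of these levels, and their part in the differences was not tested. The summed CPM of 10 osteoblast markers ran from 2446 to 25834 in the Myc-knockin tumors and from 46879 to 96531 in the p53-driven tumors, with 2 markers called lower, and it was lowest in M624. In M624, 8 of the 10 osteoblast markers had at least 3 counts. The collagen gene Col1a1 stood at 2098 CPM there, Ibsp at 34.1 and Runx2 at 9.18. In every other tumor they were at or above 4028, 535 and 132 CPM. Bglap and Bglap2 had 1 and 0 counts in M624, and none in M408. Col1a1 made up the largest part of the osteoblast sum in every tumor. The groups did not overlap for Col1a1, Runx2, Bglap and Bglap2. They overlapped for Ibsp, Sp7, Alpl, Spp1, Dmp1 and Phex. The summed CPM of 10 skeletal muscle fibre markers was highest in F325 (5502) and M408 (2300), which were also the tumors with the most H19 in each group apart from M624, and it was lowest in M624 (12.2). The myoblast markers Myod1 and Myog had 0 and 1 counts in M624, and 66 and 64 in F325. Markers of fetal liver, another tissue rich in Igf2 and H19, summed to at most 11.2 CPM in any tumor and to 0.191 CPM in M624. The highest sum was that of M9, where no fetal liver marker had more than 7 counts. In M408 the sum was 9.89 CPM, all from Afp, which had 54 counts there and at most 4 in any other tumor. Neuroendocrine markers, which can accompany Dlk1, summed to 2.67 CPM in M624 and 1.83 CPM in M408. Their highest sums, 32.7 CPM in M9 and 24.0 CPM in M351, were in the libraries with the most background. In M9 no neuroendocrine marker had more than 11 counts, and the 11 of Ddc stood beside 5.55 expected from background. Leukocyte markers summed to 94.4 to 268 CPM in the Myc-knockin and 524 to 1156 CPM in the p53-driven tumors, with 3 markers called lower. Osteoclast markers summed to 109 to 2540 CPM and 2582 to 13528 CPM, with 4 of 6 called lower, and no marker of chondrocytes, adipocytes or endothelial cells was called.

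**Figure D5:**
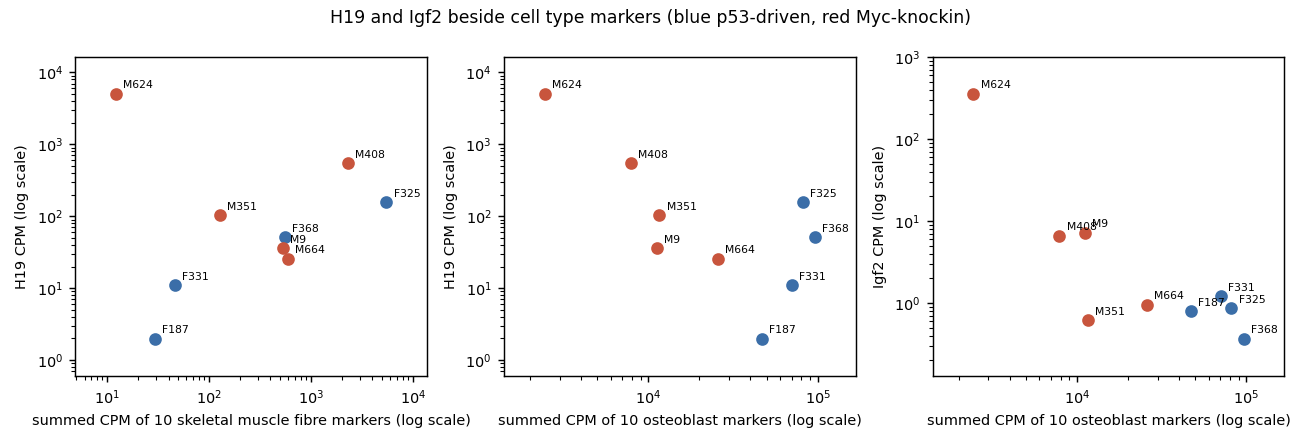
Each point is a tumor, with p53-driven tumors in blue and Myc-knockin tumors in red, on logarithmic axes. H19 is plotted against the summed CPM of 10 skeletal muscle fibre markers (left) and 10 osteoblast markers (middle), and Igf2 against the osteoblast markers (right). M624 combines the most H19 and Igf2 with the lowest marker sums, 12.2 CPM for muscle and 2446 CPM for osteoblasts. Col1a1 made up the largest part of the osteoblast sum in every tumor.

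The genes most like each of 4 members were found by Pearson's r of log2 CPM over the 9 tumors among 15356 other genes tested, as a description in which depth and background are shared by all genes. For Dlk1 they were Nek2 (r = 0.98), Elovl6, Tex30, Bub1b and Urb2, of which Nek2 and Bub1b act in mitosis. For Meg3 they were Chodl (r = 0.98), Ccnjl, Ttc39a, Rgs7bp and Bnip5, each with a mean below 6 CPM in the Myc-knockin tumors. For Igf2 they were Zfp512 (r = 0.96), Rnf227, Xrcc6, Ints10 and Ercc6l. For H19 they were Cstf2 (r = 0.95), Kif3a, Tpst1, Gnl3l and Ptges3-ps. Without M624 and M664, 1 of the 5 genes was again among the first 5 for Dlk1, 2 for Meg3 and none for Igf2 or H19. Between members of different domains, r was 0.82 for Dlk1 with Igf2, 0.84 for H19 with Peg3 and 0.74 for Igf2 with H19, and the last was 0.34 without M624.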

How the data were processed

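RNA was extracted from whole tumors with a Qiagen kit, and sequencing libraries were enriched with oligo-dT. According to the methods and the labels, reads were trimmed (trimGalore), aligned to mm10 (STAR) and assigned to genes (featureCounts). The authors deposited raw counts of 55367 genes in 9 columns, without normalization, and the settings for strand and shared reads are not given in the sources used here. The labels do not tie columns to numbered samples, and 3 of the 9 columns were placed by letter. Nothing states whether tumors came from separate litters, so p-values measure only the spread between these tumors.

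Genes were tested in R 4.3.3 with edgeR 4.0.16 (TMM, filterByExpr with a minimum count of 10, quasi-likelihood test, Benjamini-Hochberg adjustment over 15365 genes). A call needed more than 1.5-fold change and an adjusted p below 0.05. Log2 CPM used a prior count of 2. Standard errors given with edgeR values were derived as the absolute log2 fold change over the square root of the test's F statistic. DESeq2 1.42.0 and limma 3.58.1 were alternatives, beside other normalizations, other filters, fits with tumors or gene groups left out and a fit with expected background subtracted. On simulated counts of 14541 genes, edgeR recovered 0% of changed genes at a true log2 fold change of 1, 23.4% at 2 and 63.8% at 3, with 3.7% of calls false. Background was estimated from chemosensory receptor genes per kilobase of exon (GENCODE vM21, which holds 55034 of the gene identifiers). Expected counts and floors of 3 counts cover counting error only.

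The members, the lists of imprinted, pathway and marker genes and the alternatives were chosen with earlier results of these data known. Named were every member, in each list the genes called (at most 3 in each direction by size), genes of both domains by level, the 5 genes most like Dlk1, Meg3, Igf2 and H19, Myc and cell type markers, and microRNA genes within members. Nespas, in the list of imprinted genes, has no row in the table.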

Additional observations from a re-analysis of the deposited data

Results flagged for a closer look

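Levels of each of the 10 genes were examined within each group for a tumor far from the others, by the gap to the nearest tumor over the whole range (Dixon's ratio). Of 20 groups examined, 4 stood out. The ratio's usual chance rate of about 1 in 20 assumes normally distributed values. CPM are skewed, and the members were chosen with their values known, so that rate cannot be used here. The ratios also depend on the scale, and none was taken on log2 CPM. Igf2 was far higher in M624 than in the other Myc-knockin tumors, at 357 CPM against 7.17 CPM in the next (ratio 0.982). H19 was far higher in M624, at 5064 CPM against 549 CPM in M408 (ratio 0.896). Mest was far higher in F187 than in the other p53-driven tumors, at 207 CPM against 69.7 CPM (ratio 0.954). Grb10 was far lower in M9 than in the other Myc-knockin tumors, at 29.5 CPM against 308 CPM in the next (ratio 0.834).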

How the results depend on the processing

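No paired analysis was possible because the columns carry no replicate numbers. The counts of calls moved widely with the tumors and the test used. With 1 tumor left out, between 5 and 1588 genes were called (809 with all tumors, 335 without F187, 8 without F325, 6 without F331, 5 without F368, 371 without M351, 375 without M624 and 1588 without M9), between 0 and 1 members, between 0 and 9 genes of the imprinted list and both domain lists together (7 with all tumors, 4 without M351, 0 without F325, F331 or F368) and between 0 and 6 pathway genes (1 with all tumors, 2 without M408 or M624, 6 without M9, 0 without F325, F331 or F368). Scaling by library size alone gave 136 genes, 3 of these other listed genes and 0 pathway genes. All genes with at least 1 count gave 494 genes, 2 members (Dlk1 and Igf2) and 5 pathway genes. A minimum of 10 counts in every tumor gave 1316 genes, 0 members, since Dlk1 was removed, and 3 pathway genes. DESeq2 gave 2646 genes (17.2% of those tested), 5 members (Dlk1, H19, Meg3, Mest and Peg3), 16 other listed and 10 pathway genes. With limma-voom 1663 genes, 15 other listed and 7 pathway genes were called. Upper-quartile normalization gave 2 pathway genes, and 64.5% of all calls were higher against 43.0%. Subtraction of background gave 2 pathway genes. Without M624 and M664 there were 0 members called, since Dlk1 was removed, and 2 pathway genes. Without the 4 libraries with satellite reads 4595 genes (27.9% of those tested), 2 members, 16 other listed and 11 pathway genes were called. M624 and M664, both low in Rn7sk, were the only Myc-knockin tumors in that fit. Within those 4 libraries, 3 Myc-knockin and 1 p53-driven, 0 genes were called, and 701 genes, 12 other listed and 4 pathway genes had an unadjusted p under 0.05 by edgeR. The lone tumor there is assumed to vary like the others.

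Plagl1 changed sign, to -0.42 with library size alone, -0.059 with all genes with at least 1 count, -2.59 without the 4 libraries with satellite reads, and with 1 tumor left out it lay between -0.16 and 0.71, below 0 without F368, M351 or M9, and the cause was not tested. Dlk1, Meg3, Rian, Igf2, H19 and Peg3 stayed higher, and Mest and Grb10 lower, in every alternative in which they were tested. Igf2 came to 2.87 with limma-voom and 2.54 within the libraries with satellite reads. On the difference in mean log2 CPM, a prior count of 0.5 in place of 2 kept the sign for all 10 members, and for Plagl1, whose edgeR log2 fold change had the other sign, it moved from -0.82 to -0.996. Depth limits Mirg, Igf2 and Dlk1 in M351, M9 and F187, where 3 counts are 1.85, 2.39 and 1.18 CPM.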
